A study of Mus musculus with 16 samples.

Results

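The replication-dependent histone genes encode the core histones H2A, H2B, H3 and H4 and the linker histone H1 that package newly made DNA. They were taken here as the protein-coding genes whose GENCODE M21 symbol begins with Hist1h, Hist2h, Hist3h or Hist4, which gave 67 of the 55421 genes counted, with 6 H1, 18 H2A, 18 H2B, 12 H3 and 13 H4 genes. Of these, 54 lie on mouse chromosome 13, 10 on chromosome 3, 2 on chromosome 11 and 1 on chromosome 6. The series concerns macrophages of white adipose tissue (WAT) and liver, the G protein-coupled receptor GPR132 and its antagonist NOX_6_18. RNA-seq was run on 16 libraries from C57BL/6 mice given a diet written as HFD, 2 libraries in each of 8 groups. In each tissue the groups were CKO on NOX_6_18, CKO on vehicle, fl/fl on NOX_6_18 and fl/fl on vehicle. All mice carried the floxed allele GPR132fl/fl, and CKO is used here for Lyz2_cre+/_GPR132fl/fl, in which the myeloid gene Lyz2 drives Cre recombinase. The treatment groups of both genotypes received vehicle or NOX_6_18, and the sources used here state no dose or duration.

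Replication-dependent histone mRNAs are made chiefly in S phase, when the cell needs histones for its new chromatin. They end in a conserved stem-loop, bound by the stem-loop binding protein SLBP, in place of a poly(A) tail, and they are destroyed when DNA synthesis stops. Some of these genes are also known to give polyadenylated transcripts that run past the stem-loop, mainly in cells that have stopped dividing. A few members are testis-type: Hist1h1t encodes the linker histone of spermatocytes, and Hist1h2ba and Hist1h2aa encode the testis forms of H2B and H2A. Tissue macrophages are mostly non-dividing, although some renew themselves locally.

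Each library held 45624957 to 60761705 counts. The libraries were made from total RNA, and the sources used here do not say whether poly(A) selection or removal of ribosomal RNA was used. The labels do not state whether a group's 2 libraries are from different mice, and p-values here measure the spread between libraries, which may be technical. In bulk RNA, fewer cells of a type and less RNA per cell cannot be told apart. The 2 WAT libraries from fl/fl mice on vehicle stood apart from the other 6 WAT libraries: 14 spermatid marker genes summed to 1028 to 1128 CPM (counts at an equal total per library) in the other 6 and to 31.5 to 37.2 CPM in these 2. Results that rest on this pair cannot be given without it; the comparisons within CKO and within NOX_6_18 do not use it. The liver libraries held at most 3.08 CPM of that list. The tissue labels were also set against defining markers. Macrophage markers (8 genes) summed to 4904 to 7752 CPM in WAT and to 1114 to 1213 CPM in liver. Markers of other cells were present too: 5 fibroblast markers summed to 10700 to 20715 CPM in WAT, and 7 hepatocyte markers to 2536 to 2891 CPM in liver.

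The stem-loop was read from the GENCODE M21 transcripts of GRCm38 with the letters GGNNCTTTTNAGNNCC on the transcribed strand, on which it was found in 44 of the 67 histone genes (65.7%) and in 34 of the 21832 other protein-coding genes (0.156%). The forms found are shown because they are the 3′ signal that sets this gene family apart, with the loop bases in capitals. The most frequent form stood in 26 members of classes H1, H2A, H2B and H3, among them Hist1h1c, Hist3h2a and Hist1h2bp. The second stood in 7 H4 genes. The third stood in 6 members, including Hist1h1t. The last 3 forms stood in 2, 2 and 1 members.
Hist1h1c and 25 others: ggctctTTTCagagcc
Hist1h4c, Hist1h4h and 5 others: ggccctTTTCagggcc
Hist1h1t, Hist1h2bb and 4 others: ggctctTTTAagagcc
Hist1h4i and Hist2h4: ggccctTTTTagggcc
Hist1h4b and Hist1h4j: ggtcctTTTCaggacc
Hist2h2ac: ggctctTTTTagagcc

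Where a transcript ends relative to the stem-loop differed among members. In 22 the annotated transcript ran at least 100 bases past it, in 22 it stopped within 100 bases, and in 23 these letters were not found in the annotated transcript, which says only that this window does not hold them. Hist1h1c (chr13:23738808-23740367, plus strand) ran 840 bases past its stem-loop at chr13:23739512-23739527.

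The promoters of 4 members that were higher together in WAT are printed with that of Hist1h1c, which was lower in the same libraries. They are the 300 bases from 250 before to 50 after the RefSeq start on GRCm38.p6, 5′ to 3′ on the gene's strand. Capitals mark matches on either strand, at any position, to TGACGTCA (the CRE), ATTTGCAT (the octamer), CCAAT and TATAAA (letters of the TATA box). No match overlaps another in these 5. The TATAAA match of Hist1h4a stands at base 42 after the start, and that of Hist1h2bp at base -212 on the reverse strand.
Hist1h2ba, chr13:23934107-23934406, minus strand: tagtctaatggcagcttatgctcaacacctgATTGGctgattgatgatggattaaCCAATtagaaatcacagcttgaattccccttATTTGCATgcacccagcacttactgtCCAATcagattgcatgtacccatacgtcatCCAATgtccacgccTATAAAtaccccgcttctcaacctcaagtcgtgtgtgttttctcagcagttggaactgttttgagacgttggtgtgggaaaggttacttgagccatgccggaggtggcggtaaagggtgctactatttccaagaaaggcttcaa
Hist2h2ac, chr3:96220831-96221130, minus strand: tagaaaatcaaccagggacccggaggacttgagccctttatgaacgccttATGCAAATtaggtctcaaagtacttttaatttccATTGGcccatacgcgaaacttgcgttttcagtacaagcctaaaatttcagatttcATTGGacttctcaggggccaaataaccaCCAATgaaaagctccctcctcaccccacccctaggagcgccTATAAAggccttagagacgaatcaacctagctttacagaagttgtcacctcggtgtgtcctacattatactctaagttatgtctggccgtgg
Hist1h2bp, chr13:21787238-21787537, plus strand: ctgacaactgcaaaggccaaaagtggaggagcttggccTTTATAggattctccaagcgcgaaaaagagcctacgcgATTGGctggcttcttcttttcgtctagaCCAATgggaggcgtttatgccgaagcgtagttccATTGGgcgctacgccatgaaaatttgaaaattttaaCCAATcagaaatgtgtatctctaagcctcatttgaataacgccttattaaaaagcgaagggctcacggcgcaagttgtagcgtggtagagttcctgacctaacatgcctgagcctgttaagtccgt
Hist1h4a, chr13:23761200-23761499, minus strand: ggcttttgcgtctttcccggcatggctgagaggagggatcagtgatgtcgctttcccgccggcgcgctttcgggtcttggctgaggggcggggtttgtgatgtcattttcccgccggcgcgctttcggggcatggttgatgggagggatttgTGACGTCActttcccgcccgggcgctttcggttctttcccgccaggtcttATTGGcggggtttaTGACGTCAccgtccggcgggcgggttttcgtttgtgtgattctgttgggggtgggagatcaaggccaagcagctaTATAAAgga
Hist1h1c, chr13:23738557-23738856, plus strand: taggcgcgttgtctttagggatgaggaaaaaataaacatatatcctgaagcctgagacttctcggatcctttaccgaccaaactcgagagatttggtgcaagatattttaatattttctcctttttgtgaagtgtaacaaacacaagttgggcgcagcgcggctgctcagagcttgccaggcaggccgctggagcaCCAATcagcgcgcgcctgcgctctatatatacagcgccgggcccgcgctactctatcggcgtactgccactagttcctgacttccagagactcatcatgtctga

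The promoter table held 62 of the 67 members. CCAAT was found in 53 of them (85.5%), against 37.4% of all 32851 promoters of the same length, and TATAAA in 56.5% against 13.6%. The octamer, known as a site of OCT factors in H2B promoters, was found in 14 members (22.6%), 7 of them H2A and 7 H2B genes, against 1.74% of all promoters. Of the 4 promoters shown that were higher together, Hist1h2ba and Hist2h2ac hold the octamer and Hist1h2bp and Hist1h4a do not. The CRE, a site known to bind CREB and ATF factors, was found in 4 members (6.45%) against 1.79% of all promoters, and Hist1h4a holds it 2 times, at bases -98 and -34 from the start. Promoters of H1, H2A, H2B and H3 members all held CCAAT among those in the table, whereas 3 of 12 H4 promoters did. Such matches describe the letters and are not sites of measured binding.

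In position, 12 pairs of members start within 500 bases of each other on opposite strands, and all 12 pair an H2A with an H2B gene. The promoter windows of such neighbours can overlap, so 1 match can be counted for both, and the motif shares above do not count independent promoters. The 4 members with the CRE include both genes of such a pair. The testis-type genes Hist1h2ba and Hist1h2aa form such a pair, with starts 306 bases apart. Hist2h2ac and Hist2h2be form another, at 239 bases, and Hist1h2an and Hist1h2bp another, at 243 bases. Members also share sequence: the median member shared 47.0% of its 50-base windows with another member, and the median H2A gene 73.0%, so counts of near-identical copies are uncertain. Exons of 24 members, all 18 H2A genes among them, overlap an exon of another gene.

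Few members carried most of the signal. All members together summed to 123.8 to 191.2 CPM in WAT libraries and 52.7 to 61.9 CPM in liver libraries, where CPM uses library totals scaled within the tissue by the trimmed mean of M values (TMM). Levels on this scale stand side by side for the tissues and are compared between them only in the fit over all 16 libraries. Hist1h1c, Hist1h2bc and Hist3h2a took 57.1 to 80.3% of the members' counts in a WAT library and 75.2 to 79.4% in a liver library. A mean of at least 1 CPM was reached by 12 members in WAT and 7 in liver. At the low end, 13 members in WAT and 34 in liver had under 10 counts in every library, and Hist2h2aa2 in WAT and 6 members in liver were at 0 throughout. A count of 0 allows up to 3 counts, or 0.0484 to 0.0679 CPM in a single library, and covers counting error only. The filter on low counts left 48 members to test in WAT and 24 in liver.

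**Figure D1:**
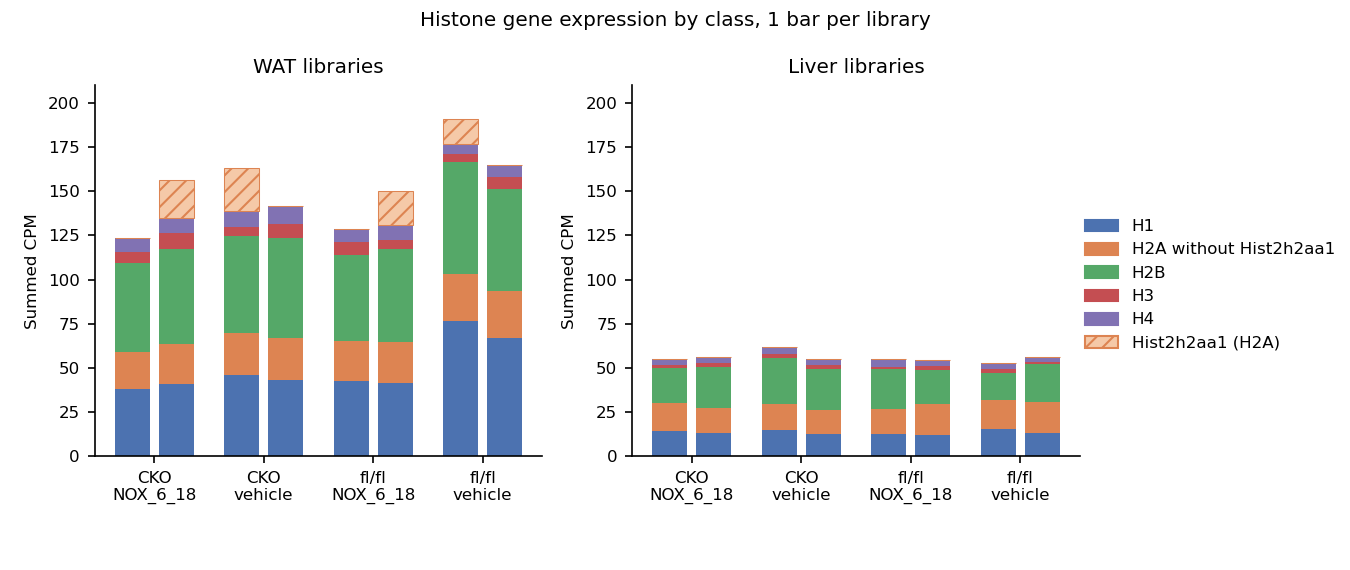
Summed CPM of the members of each histone class in each library, WAT on the left and liver on the right, with 1 stacked bar per library and Hist2h2aa1 hatched. The WAT bars reach 123.8 to 191.2 CPM and the liver bars 52.7 to 61.9 CPM, H1 and H2B fill most of each WAT bar, and Hist2h2aa1 stands in only some libraries of each WAT group.

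By class in WAT, the 6 H1 genes summed to 39.4 ± 2.12 CPM in CKO on NOX_6_18, 44.5 ± 1.9 in CKO on vehicle, 42 ± 0.672 in fl/fl on NOX_6_18 and 71.7 ± 6.97 in fl/fl on vehicle (mean ± SD, n = 2 libraries each). The fl/fl vehicle group was the highest by more than these spreads. Its mean was the lowest once Hist1h1c was left out, when the means of the other 3 groups were 1.65 to 2.19 CPM and that of fl/fl on vehicle 1.24 CPM. That low mean rested on fl/fl vehicle replicate 1, and without Hist1h1c the libraries of the groups overlapped. The 18 H2B genes summed to 52.1 ± 2.01 CPM in CKO on NOX_6_18, 55.9 ± 0.948 in CKO on vehicle, 50.9 ± 2.98 in fl/fl on NOX_6_18 and 60.7 ± 3.92 in fl/fl on vehicle. The 13 H4 genes summed to 8.37 ± 0.375 CPM in CKO on NOX_6_18, 9.78 ± 0.648 in CKO on vehicle, 7.98 ± 0.595 in fl/fl on NOX_6_18 and 6.18 ± 0.546 in fl/fl on vehicle, which was lowest. Much of this H4 gap came from Hist1h4a, which stood at 0.0906 to 0.138 CPM in that pair. Its range over the other WAT libraries was 1.41 to 2.64 CPM. With Hist1h4a left out, the H4 sums of the fl/fl vehicle libraries overlapped those of the fl/fl NOX_6_18 libraries. Sums over all H3 genes differed by less than their spread, at 5.68 to 7.4 CPM with SDs of 1.44 to 2.5. Exons of Hist2h3b and Hist2h3c1 overlap those of another gene, and both were left out after seeing the data. The remaining 10 H3 genes summed to 3.15 and 2.85 CPM in the fl/fl vehicle libraries. The other WAT libraries held 3.39 to 4.575 CPM of these 10 genes, so the fl/fl vehicle libraries were lowest, by a small gap. In liver the group means lay between 12.4 and 14.1 CPM for H1, 14.3 and 17.1 for H2A, 18.6 and 24.8 for H2B, 1.44 and 2.27 for H3 and 3.28 and 3.81 for H4. Sums over members were not tested.

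By level per length, in CPM per kilobase of gene model averaged over the 8 libraries of a tissue, the H1 gene Hist1h1c stood at 30.5 in WAT and 8.28 in liver. The second H1 gene was Hist1h1e in WAT, at 0.436, and Hist1h1b in liver, at 0.117. Hist1h1c encodes a somatic linker histone that binds DNA where it enters and leaves the nucleosome. Among H2B genes, Hist1h2bc stood at 29.2 CPM per kilobase in WAT and 13.2 in liver, and Hist1h2bg at 7.13 and 2.93. Among H2A genes Hist2h2aa1 stood at 17.1 in WAT, followed by Hist3h2a at 10.2, and in liver Hist3h2a stood at 6.81 and Hist1h2ae at 0.256. H3 and H4 form the core tetramer, and the leading gene of each stood below the leading gene of H1, H2A and H2B in both tissues. Hist2h3c2 and Hist2h3c1 led the H3 genes, at 2.09 and 1.48 CPM per kilobase in WAT and 0.358 and 0.589 in liver. The leading H4 genes were Hist1h4i and Hist1h4a in WAT, at 3.44 and 2.71, and Hist1h4k and Hist1h4m in liver, at 1.65 and 1.47.

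The annotated 3′ end and the length of the model went with the counts in part. Members whose transcript runs at least 100 bases past the stem-loop took 50 to 67.1% of the members' counts in a WAT library and 56.9 to 69.0% in a liver library. Members that stop within 100 bases took 2.38 to 20.3% and 1.69 to 4.8%, and members without the stem-loop letters, mainly Hist1h2bc and Hist2h2be, took 27.9 to 35.9% and 26.2 to 39.8%. The 18 members with a gene model of at least 1000 bases took 71.8 to 90.5% of the members' counts in WAT and 86.7 to 88.6% in liver. Per length, the median levels in WAT were 0.291 CPM per kilobase for the long ends, 0.324 for the short ends and 0.201 for those without the letters. In liver they were 0.106 for the long ends, 0.0725 for the short ends and 0.0770 for those without the letters, so the order of long and short ends differed between tissues. A longer model collects more reads at equal expression, and the part of length in these shares was not tested.

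**Figure D2:**
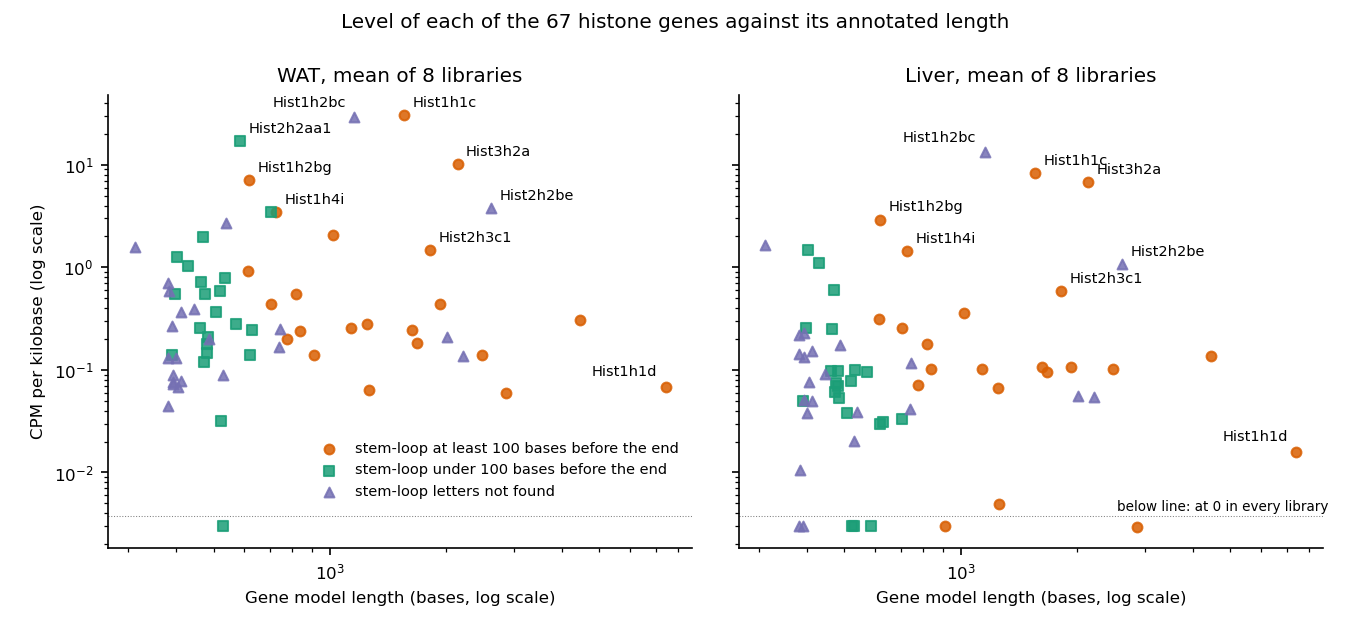
Mean CPM per kilobase of each of the 67 members against its gene model length, both on log scales, for WAT on the left and liver on the right, with symbols for the 3 kinds of annotated 3′ end; members under the dotted line were at 0 in every library. Hist1h1c, Hist1h2bc and Hist3h2a stand at the top in both tissues, with Hist2h2aa1 beside them in WAT alone, and most other members lie under 1 CPM per kilobase.

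Hist2h2aa1, which encodes an H2A, went with no group in WAT. It had 9 and 1280 counts in CKO on NOX_6_18, 1457 and 0 in CKO on vehicle, 0 and 1161 in fl/fl on NOX_6_18 and 637 and 0 in fl/fl on vehicle, and 0 in every liver library. Each group thus held a high and a low library. Its neighbour Hist2h2aa2, of which every 50-base window is found in another member, was at 0 in all 16 libraries, and Hist2h2aa1 shares 89.2% of its windows. The overlapping gene Gm20634, a processed transcript, was also uneven, at 1378 and 124 counts in CKO on NOX_6_18, 225 and 0 in CKO on vehicle, 0 and 340 in fl/fl on NOX_6_18 and 225 and 0 in fl/fl on vehicle. The summed H2A level in WAT, 21.1 to 48.4 CPM over the libraries, rested on this gene and ran from 21 to 26.8 CPM without it. The H3 gene Hist2h3c1 was uneven too, at 0.166 to 4.91 CPM over the WAT libraries.

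In WAT of fl/fl mice, NOX_6_18 against vehicle gave calls in both directions: Hist1h1c, Hist1h2bc, Hist1h2bg and Hist3h2a were lower, and Hist2h2be and 5 scarce members were higher. Hist1h1c fell by 0.82 on the log2 scale, and Hist1h2bc fell by 0.61, whereas Hist1h2bp and Hist1h4a were 4.04 and 3.66 higher and Hist2h2be 0.96 higher. In all, 6 members were higher and 4 lower among the 48 tested (edgeR quasi-likelihood test, Benjamini-Hochberg adjusted p under 0.05), or 20.8%, against 37.8% of all 25871 genes tested. The background shares were 24.6% higher and 13.2% lower. The median log2 fold change was 0.17 over the 48 members and 0.12 over all genes tested.

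For CKO against fl/fl on vehicle in WAT, which shares the fl/fl vehicle libraries with the comparison above, 6 members were higher and 2 lower, or 16.7% of the 48 tested against 36.8% of all genes (24.4% higher and 12.4% lower). The median log2 fold change was 0.12 over the members and 0.10 over all genes tested. The members called here were Hist1h2ba, Hist1h2bp, Hist1h3a, Hist1h4a, Hist2h2ac and Hist2h2be, all higher, and Hist1h1c and Hist1h2bc, both lower.

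**Figure D3:**
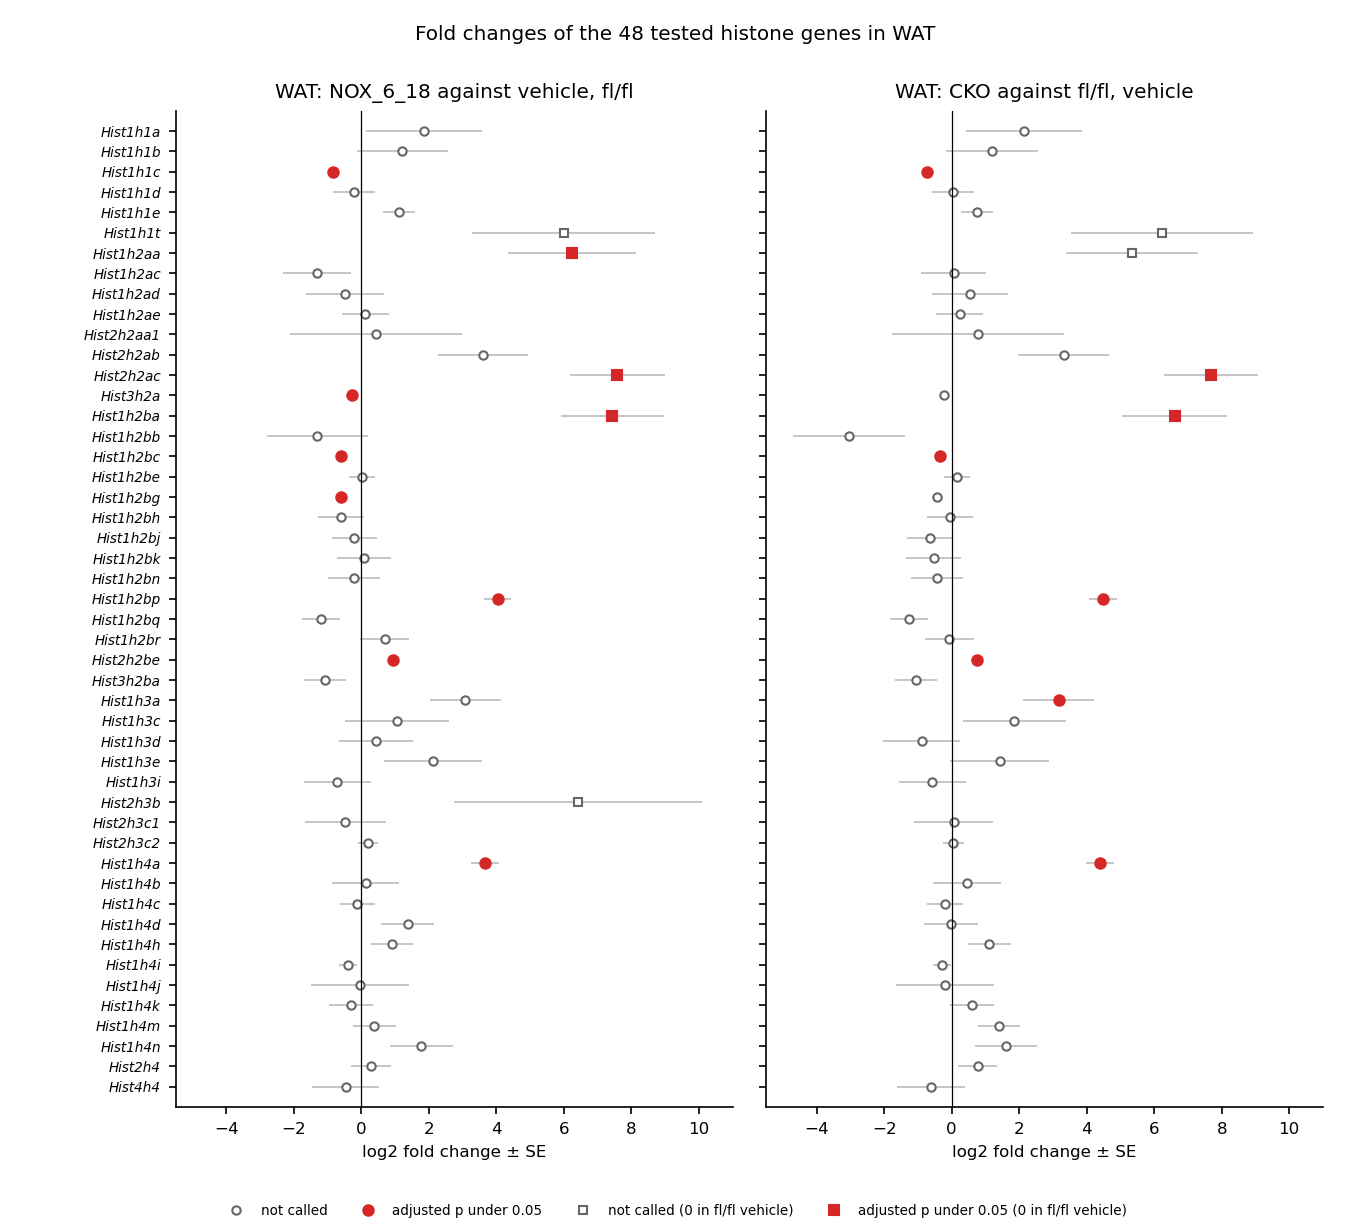
Log2 fold change ± SE of the 48 histone genes tested in WAT, for NOX_6_18 against vehicle in fl/fl mice on the left and CKO against fl/fl on vehicle on the right; red marks an adjusted p under 0.05 and squares mark genes at 0 in both fl/fl vehicle libraries, whose fitted value is no bound, with genes at 0 in both groups left out. Of the red marks, 6 are higher and 4 lower on the left, and 6 higher and 2 lower on the right.

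The linker histone gene Hist1h1c had 36.2 and 39.3 CPM in CKO on NOX_6_18, 43.3 and 41.5 in CKO on vehicle, 39.8 and 39.8 in fl/fl on NOX_6_18 and 75.8 and 65.1 in fl/fl on vehicle. The fl/fl vehicle libraries were the 2 highest, and no other group reached them. Its log2 fold change was -0.82 ± 0.10 (SE, edgeR quasi-likelihood adjusted p = 0.000264) for NOX_6_18 in fl/fl mice and -0.73 ± 0.10 (adjusted p = 0.000525) for CKO on vehicle. None of the other 5 H1 genes was called in either comparison. Hist1h1e, another somatic linker histone, had 0.77 to 1.40 CPM in the other 6 libraries and 0.362 and 0.688 CPM in fl/fl on vehicle.

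Hist1h2bc, an H2B gene, had 27.6 and 29.5 CPM in CKO on NOX_6_18, 34.3 and 34.1 in CKO on vehicle, 28.1 and 29.0 in fl/fl on NOX_6_18 and 44.5 and 42.5 in fl/fl on vehicle. The groups on NOX_6_18 were lowest, CKO on vehicle lay between, and the fl/fl vehicle libraries were above all others. The log2 fold change was -0.61 ± 0.08 (edgeR quasi-likelihood adjusted p = 0.000735) for NOX_6_18 in fl/fl mice and -0.35 ± 0.08 (adjusted p = 0.0128) for CKO on vehicle. The call for CKO was lost, at -0.31 to -0.35, when fl/fl vehicle replicate 1 or either CKO vehicle library was left out, and with scaling by library totals, at -0.18. With the trend on GC content and length removed, the fold changes for NOX_6_18 in fl/fl mice and for CKO on vehicle were -1.71 and -1.50 for Hist1h2bc and -1.44 and -1.41 for Hist1h1c.

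Hist1h2bg, a further H2B gene, had 3.65 and 4.09 CPM in fl/fl on NOX_6_18, against 5.91 and 5.74 in fl/fl on vehicle, and 3.56 to 4.38 CPM in the 4 CKO libraries. The groups compared did not overlap. It fell by 0.59 ± 0.17 on the log2 scale (edgeR quasi-likelihood adjusted p = 0.0268), and the call was lost without fl/fl vehicle replicate 1 (-0.57) or either fl/fl NOX_6_18 library (-0.51 and -0.65), with library totals alone (-0.42), with no filter on low counts and with only the groups compared fitted (-0.58 each). Hist3h2a, an H2A gene, had 21 and 20.7 CPM in fl/fl on NOX_6_18, against 25.5 and 25.0 in fl/fl on vehicle. Its fall of 0.27 ± 0.09 (adjusted p = 0.0472) was lost without any 1 of these 4 libraries, at -0.25 to -0.29, and with RLE size factors, DESeq2, no filter, a replicate block or only the groups compared (-0.26 to -0.27), and was -0.11 and not called with library totals alone. With the trend on GC content and length removed it was -0.96, and Hist1h2bg was -1.16. Exons of Hist3h2a overlap those of Trim17 on the same strand, and Trim17 had 1058 and 1142 counts in fl/fl on NOX_6_18, against 12 and 36 in fl/fl on vehicle; the part of that overlap in the Hist3h2a counts was not tested.

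Hist2h2be, an H2B gene known to give polyadenylated transcripts in differentiated cells, had 11.7 and 12.2 CPM in CKO on NOX_6_18, 9.36 and 10.8 in CKO on vehicle, 10.6 and 12.6 in fl/fl on NOX_6_18 and 6.75 and 5.23 in fl/fl on vehicle. It was lowest in the fl/fl vehicle libraries, the reverse of Hist1h1c and Hist1h2bc. It rose by 0.96 ± 0.17 (edgeR quasi-likelihood adjusted p = 0.00303) with NOX_6_18 in fl/fl mice and by 0.75 ± 0.17 (adjusted p = 0.0102) in CKO on vehicle. The second call was lost without CKO vehicle replicate 2 (0.65) and with the trend on GC content and length removed (0.29); in the first comparison the value under that setting was 0.53.

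Hist1h2bp, an H2B gene, had 203 and 246 counts in CKO on NOX_6_18, 196 and 182 in CKO on vehicle, 140 and 144 in fl/fl on NOX_6_18 and 10 and 4 in fl/fl on vehicle. Hist1h4a, which encodes H4, had 84 and 123 counts in CKO on NOX_6_18, 138 and 138 in CKO on vehicle, 77 and 93 in fl/fl on NOX_6_18 and 4 and 7 in fl/fl on vehicle. For both genes the 6 other WAT libraries stood far above the fl/fl vehicle pair, and in liver neither exceeded 5 counts in any library. The log2 fold changes for NOX_6_18 in fl/fl mice were 4.04 ± 0.41 for Hist1h2bp and 3.66 ± 0.41 for Hist1h4a (edgeR quasi-likelihood adjusted p = 0.000124 and 0.000228). For CKO on vehicle they were 4.49 ± 0.41 and 4.40 ± 0.41 (adjusted p = 6.71e-05 and 7.78e-05). These calls held under every alternative tried, with ranges of 3.32 to 4.95 and 3.71 to 5.39 for Hist1h2bp and 3.34 to 4.00 and 4.02 to 4.74 for Hist1h4a.

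Hist2h2ac, the H2A partner of Hist2h2be across their shared upstream region, had 13 and 24 counts in CKO on NOX_6_18, 19 and 32 in CKO on vehicle, 21 and 29 in fl/fl on NOX_6_18 and 0 and 0 in fl/fl on vehicle. It was called in both comparisons (edgeR quasi-likelihood adjusted p = 0.00491 for NOX_6_18 and 0.00469 for CKO). Its pooled level was 13.8 times a floor of 3 counts over the fl/fl vehicle pair with NOX_6_18 and 14.5 times that floor in CKO on vehicle. Such ratios take the counts of the other group as observed and are no lower bounds. Hist1h3a, an H3 gene, had 25 and 56 counts in CKO on NOX_6_18, 31 and 23 in CKO on vehicle, 31 and 20 in fl/fl on NOX_6_18 and 0 and 5 in fl/fl on vehicle. It was called for CKO on vehicle (3.18 ± 1.06, edgeR quasi-likelihood adjusted p = 0.0464) but not without fl/fl vehicle replicate 1 (2.27) or either CKO vehicle library (3.05 and 3.29), with a replicate block (3.30), with only the groups compared (3.19) or with the trend on GC content and length removed (2.75). Without fl/fl vehicle replicate 2 its fitted value rests on 0 counts in fl/fl on vehicle and is no fold.

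The testis-type members had 0 counts in WAT of fl/fl mice on vehicle and few in the other WAT groups, 13 to 44 a library over the 3 genes. Hist1h2ba, the testis H2B gene, had 24 and 11 counts in CKO on NOX_6_18, 17 and 8 in CKO on vehicle, 22 and 23 in fl/fl on NOX_6_18 and 0 and 0 in fl/fl on vehicle. It was called for NOX_6_18 in fl/fl mice (edgeR quasi-likelihood adjusted p = 0.00754), at 12.5 times the floor of 3 counts over the fl/fl vehicle pair. It was also called for CKO on vehicle (adjusted p = 0.0142), at 7.08 times that floor, and the second call was lost without CKO vehicle replicate 1. With only the groups compared fitted, the gene did not pass the filter on low counts in the second comparison and was not tested. Hist1h2aa, its divergent H2A neighbour, had 8 and 11 counts in CKO on NOX_6_18, 5 and 5 in CKO on vehicle, 4 and 16 in fl/fl on NOX_6_18 and 0 and 0 in fl/fl on vehicle. Hist1h2aa was called for NOX_6_18 in fl/fl mice (edgeR quasi-likelihood adjusted p = 0.0378), at 5.54 times the same floor. That call was lost without any 1 of the 4 libraries compared, with no filter and with a replicate block. With only the groups compared fitted, the gene did not pass the filter and was not testable. For CKO on vehicle it stood at 2.83 times the floor and was not called. Hist1h1t, the spermatocyte linker histone gene, had 12 and 12 counts in CKO on NOX_6_18, 20 and 0 in CKO on vehicle, 12 and 4 in fl/fl on NOX_6_18 and 0 and 0 in fl/fl on vehicle. It was not called in either comparison, and its presence in CKO on vehicle rested on replicate 1. In liver these 3 genes had at most 2 counts in any library.

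Other genes of testis differed in the same libraries. Of 14 spermatocyte markers 13 were higher and 0 lower in each of the 2 comparisons with fl/fl on vehicle. Of 14 spermatid markers 14 were higher in each. Among all genes tested, 24.6% were higher with NOX_6_18 in fl/fl mice and 24.4% in CKO on vehicle. The summed spermatocyte level was 722 to 779 CPM in the other 6 WAT libraries and 14.0 to 14.8 CPM in fl/fl on vehicle. Boll was at 0 in both fl/fl vehicle libraries and Spo11 and Hormad1 in 1 each, and none of the 28 spermatocyte and spermatid markers was at 0 in any of the other 6; in liver 8 to 11 of the 14 spermatocyte markers were at 0, Sycp1, Hormad1 and Tex101 among them in every library, and so were 3 to 9 of the 14 spermatid markers. Of the testis histone genes that lie outside the clusters, 6 were tested and 4 were higher in each comparison: H2al2a (5.84 ± 0.25 and 5.99 ± 0.25), H1fnt (5.66 ± 0.27 and 5.67 ± 0.27), Hils1 (5.43 ± 0.32 and 5.58 ± 0.32) and Hypm (6.36 ± 0.57 and 6.12 ± 0.58), each for NOX_6_18 in fl/fl mice and then CKO on vehicle. H1fnt and Hils1 encode linker histones of spermatids. The part of testis transcripts in the higher histone members was not tested.

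**Figure D4:**
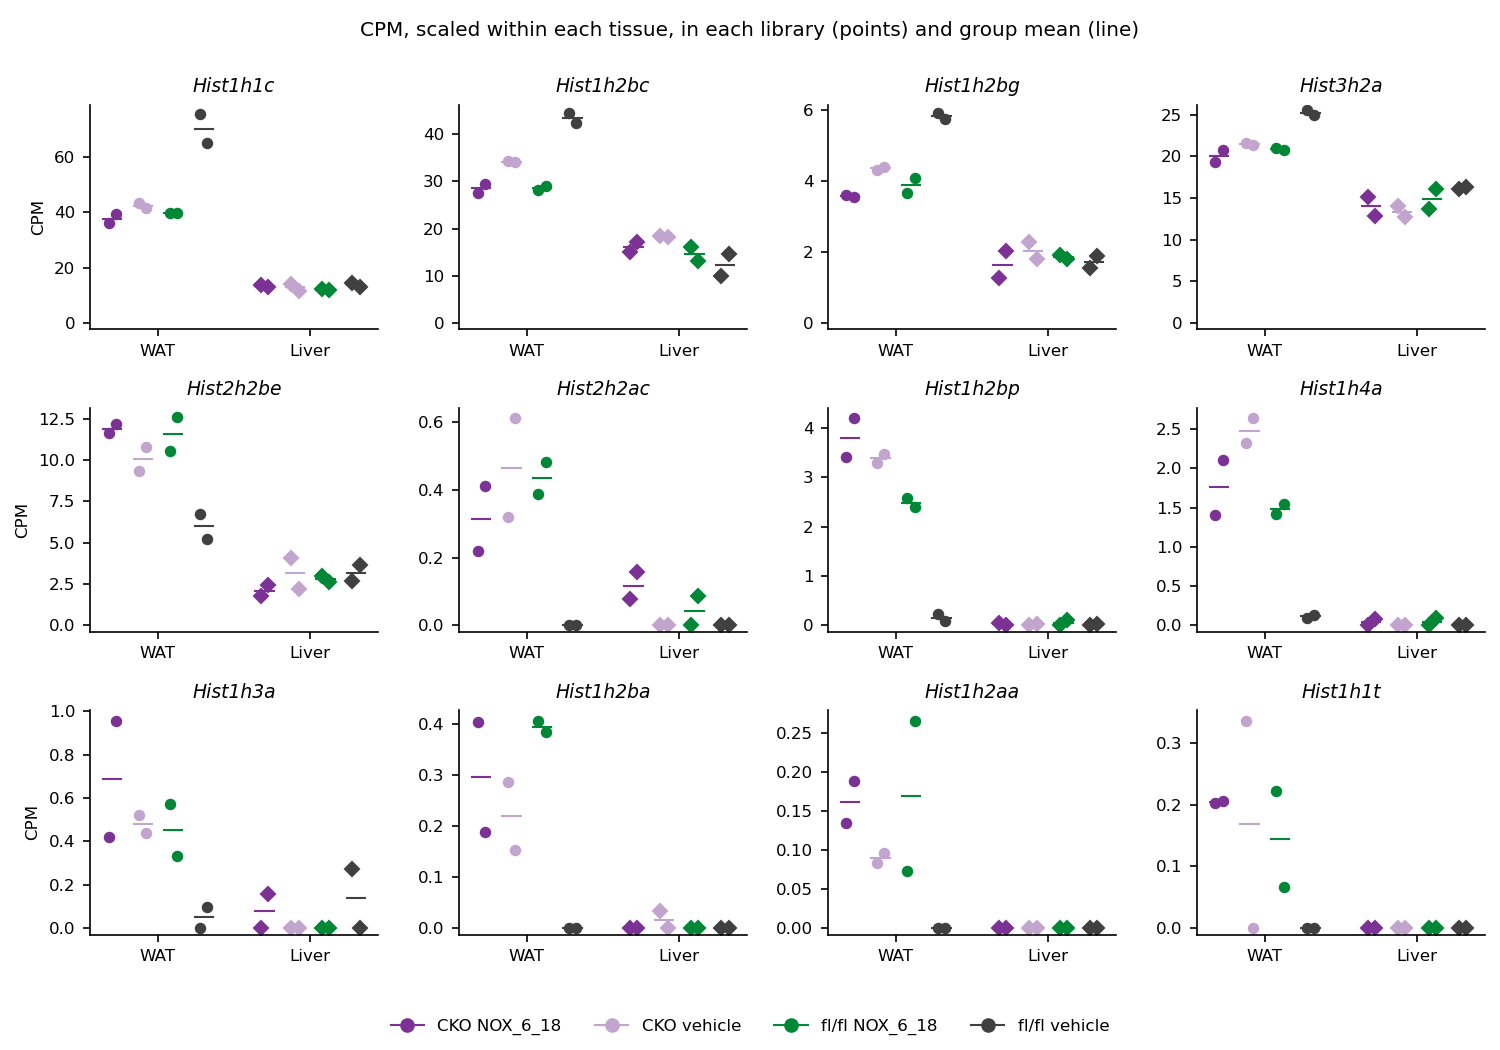
CPM, scaled within each tissue, of 12 histone genes in each library, with a point per library and a line at the group mean, for WAT and liver, and in each tissue CKO on NOX_6_18, CKO on vehicle, fl/fl on NOX_6_18 and fl/fl on vehicle from left to right. The fl/fl vehicle points in WAT are highest for Hist1h1c, Hist1h2bc, Hist1h2bg and Hist3h2a and lowest for Hist2h2be and Hist1h2bp, and the testis-type genes Hist1h2ba, Hist1h2aa and Hist1h1t are near 0 in liver.

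Within the CKO genotype no histone gene was called for NOX_6_18 against vehicle in WAT (0 of 48 by the edgeR quasi-likelihood test, 1 at an unadjusted p under 0.05 and 0 by DESeq2), where 0.0155% of all genes were. The gene at an unadjusted p under 0.05 was Hist1h2bc (-0.26 ± 0.08, adjusted p = 1.0). For CKO against fl/fl on NOX_6_18 no member was called either (0 of 48, 0 at an unadjusted p under 0.05 and 0 by DESeq2), against 0.0348% of all genes, and the member with the smallest p was Hist1h2bp (0.61 ± 0.31, adjusted p = 1.0). Neither comparison uses the fl/fl vehicle libraries.

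The treatment effect differed between genotypes for 5 members in WAT, 10.4% of those tested against 25.3% of all genes (6.71% higher and 18.6% lower). This interaction uses the fl/fl vehicle pair, which stood apart from the other WAT libraries, and the part of that pair in it was not tested. Hist1h1c had a higher effect in CKO than in fl/fl mice (0.65 ± 0.13, edgeR quasi-likelihood adjusted p = 0.00843, and 1.32 with the trend on GC content and length removed). Hist1h2bp (-3.87 ± 0.52, adjusted p = 0.000897) and Hist1h4a (-4.16 ± 0.53, adjusted p = 0.000653) had lower ones. Hist2h2ac and Hist1h2ba were called lower too (adjusted p = 0.0108 and 0.0291), with fitted values that rest on 0 counts in fl/fl on vehicle, and the call of Hist1h2ba was lost without any 1 of the 8 WAT libraries but CKO vehicle replicate 2, and with all 16 libraries in the fit.

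In liver no change of a histone gene was detectable at this depth. Of 24 members tested none was called for NOX_6_18 in fl/fl mice (0 by edgeR's quasi-likelihood test, 1 at an unadjusted p under 0.05 and 0 by DESeq2, against 5.52% of all 19515 genes). For CKO against fl/fl on vehicle none was called (2 at an unadjusted p under 0.05, against 5.8% of all genes), and DESeq2 called 1, Hist1h2bc, higher. None was called for NOX_6_18 in CKO mice, for CKO on NOX_6_18, or for the difference of the effects (0, 0 and 1 at an unadjusted p under 0.05 and 0 by DESeq2), against 0.0359%, 0.0359% and 2.45% of all genes.

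Hist1h2bc had 15 and 17.2 CPM in CKO on NOX_6_18, 18.4 and 18.2 in CKO on vehicle, 16.1 and 13.1 in fl/fl on NOX_6_18 and 9.88 and 14.7 in fl/fl on vehicle in liver. The CKO vehicle pair was above the fl/fl vehicle pair, which was wide, and the log2 fold change was 0.58 ± 0.19 (edgeR quasi-likelihood adjusted p = 0.140). Hist1h1d, a somatic linker histone gene, had 8 and 4 counts in CKO on NOX_6_18, 6 and 14 in CKO on vehicle, 12 and 8 in fl/fl on NOX_6_18 and 0 and 0 in fl/fl on vehicle. It was not called against fl/fl on vehicle (adjusted p = 0.112 for NOX_6_18 and 0.122 for CKO).

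WAT was set against liver in fl/fl mice on vehicle, in a fit over all 16 libraries. Of 48 members tested 6 were higher and 2 lower in WAT, or 16.7% against 38.2% of all 26751 genes (21.6% higher and 16.5% lower). Hist1h1c had 48.3 ± 4.57 CPM in WAT and 19.7 ± 1.8 CPM in liver (mean ± SD, n = 2 each, on the scale of the 16 libraries), a log2 fold change of 1.29 ± 0.12 (edgeR quasi-likelihood adjusted p = 1.62e-06). Hist2h3c2, an H3 gene, had 87 and 107 counts in WAT and 17 and 4 in liver (2.31 ± 0.48, adjusted p = 0.00189), and Hist1h2bq, an H2B gene of which 97.3% of windows are shared, 33 and 41 in WAT and 3 and 2 in liver (2.91 ± 0.72, adjusted p = 0.00624). Hist1h2bc was 0.76 ± 0.16 higher and Hist1h2bg 0.70 ± 0.25 higher (adjusted p = 0.0020 and 0.0432), and the second was lost without any 1 of the 4 libraries (0.57 to 0.84), with no filter (0.73), a replicate block (0.70), only the groups compared (0.67) or the trend on GC content and length removed (0.49). Hist1h1d had 20 and 36 counts in WAT and 0 and 0 in liver and was called higher in WAT (edgeR quasi-likelihood adjusted p = 0.00131). Its WAT level was 9.73 times a floor of 3 counts over the liver pair.

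The 2 genes that were lower in WAT were Hist3h2a, with 17.3 ± 0.0606 CPM in WAT and 23.3 ± 0.274 CPM in liver (-0.43 ± 0.11, edgeR quasi-likelihood adjusted p = 0.00803), and the H4 gene Hist1h4k (-1.60 ± 0.58, adjusted p = 0.0459). The direction of Hist3h2a depended on the scaling. With library totals alone, which moved the median of all genes to 0.95 and gave 15 members higher and 0 lower in WAT, it was 0.52 higher in WAT; under that scaling Hist1h1c was 2.24, Hist1h2bc 1.71 and Hist1h2bg 1.64 higher, and Hist1h4k, at -0.66, was not called. Hist1h4k was lost without any 1 of the 4 libraries compared (-1.31 to -1.85), with no filter (-1.58) and with only the groups compared (-1.63).

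In fl/fl mice the effect of NOX_6_18 was lower in WAT than in liver for 4 members and higher for 0, or 8.33% against 14.7% of all genes (7.2% lower and 7.52% higher). Hist1h1c had a difference of -0.62 ± 0.16 and Hist1h2bc of -0.86 ± 0.22 (edgeR quasi-likelihood adjusted p = 0.0234 and 0.0223). Hist1h2bq (-3.12 ± 0.96, adjusted p = 0.0474) and Hist1h1d (adjusted p = 0.0158) rested on low counts. The call of Hist1h1c was lost without any 1 of the 8 libraries (-0.52 to -0.64) but WAT vehicle replicate 2 and liver vehicle replicate 1. The call of Hist1h2bc was lost without WAT vehicle replicate 1, either WAT NOX_6_18 library, liver vehicle replicate 1 or liver NOX_6_18 replicate 1 (-0.60 to -0.88), that of Hist1h2bq without any 1 of the 8 (-2.88 to -3.41) and that of Hist1h1d without either liver vehicle library. With the trend on GC content and length removed, Hist1h1c was -1.11 and Hist1h2bc -1.64. With library totals alone the calls of Hist1h1c (-0.46), Hist1h2bc (-0.69) and Hist1h2bq (-2.95) were lost, and with only the groups compared those of Hist1h2bc (-0.86) and Hist1h2bq (-3.12), and that of Hist1h2bq also with no filter or a replicate block.

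Of the other genes of the pathway, the replacement and variant histones are not members of this set. In the comparisons with fl/fl on vehicle within a tissue, their calls were in the lower direction alone. Of 11 tested, 6 were lower and 0 higher with NOX_6_18 in fl/fl mice in WAT, with a median log2 fold change of -0.30, against 13.2% of all genes lower, 24.6% higher and a median of 0.12. In CKO on vehicle 5 were lower and 0 higher (median -0.24), against 12.4% of all genes lower, 24.4% higher and a median of 0.10. H1f0, the linker histone of quiescent cells, fell by 0.62 ± 0.07 and 0.54 ± 0.07 (edgeR quasi-likelihood adjusted p = 0.000237 and 0.00051), and Cenpa, the centromeric H3, fell by 1.02 ± 0.13 and 0.91 ± 0.13. In liver 2 of 11 were lower in each comparison, against 5.52% and 5.8% of all genes called in either direction for NOX_6_18 and for CKO. In WAT against liver 5 were higher and 2 lower, beside 21.6% of all genes higher and 16.5% lower.

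Genes of S phase and proliferation had 13 of 26 lower and 2 higher with NOX_6_18 in fl/fl mice in WAT (median -0.31), and 8 lower and 3 higher in CKO on vehicle (median -0.26), beside 13.2% and 12.4% of all genes lower and 24.6% and 24.4% higher. The summed level of the list was 817 to 869 CPM in the other 6 WAT libraries and 947 to 956 CPM in fl/fl on vehicle. Ccna2, an S phase cyclin, fell by 0.69 ± 0.12 and 0.52 ± 0.12, E2f1, a transcription factor of S phase genes, fell by 0.64 ± 0.10 and 0.48 ± 0.10, and Mcm7, a subunit of the replicative helicase, rose by 0.41 ± 0.08 and 0.51 ± 0.08. In liver 2 of 26 were lower with NOX_6_18 in fl/fl mice and 3 in CKO on vehicle, and 0 were higher, against 5.52% and 5.8% of all genes called.

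For the machinery that makes and stores histone mRNA, 18 processing and turnover genes were tested. With NOX_6_18 in fl/fl mice in WAT 2 were higher and 3 lower, and in CKO on vehicle 3 were higher and 1 lower, beside 37.8% and 36.8% of all genes called in either direction. Ncbp1, a cap-binding subunit, rose by 0.80 ± 0.10 in both, and Slbp, whose product binds the stem-loop, rose by 0.33 ± 0.10 in CKO on vehicle (edgeR quasi-likelihood adjusted p = 0.0361). Snrpb, a Sm protein of snRNPs, fell by 0.29 ± 0.08 in both, and Lsm10, a subunit of the U7 snRNP that cleaves histone pre-mRNA, fell by 0.73 ± 0.21 with NOX_6_18. Of 14 chaperones 3 were higher and 4 lower with NOX_6_18, and 3 were higher and 3 lower in CKO on vehicle. Nasp, a histone chaperone with a known testis form, rose by 2.55 ± 0.09 and 2.57 ± 0.09, and Chaf1a, a subunit of the chromatin assembly factor CAF-1, by 1.14 ± 0.09 and 1.20 ± 0.09. The acidic chaperones Anp32a, which fell by 0.56 ± 0.10 and 0.42 ± 0.10, and Anp32b, which fell by 0.39 ± 0.08 and 0.30 ± 0.08, were lower in both. In liver no gene of either list was called (0 of 18 and 0 of 14 by edgeR's quasi-likelihood test in each comparison). Of 6 cell cycle inhibitors 1, Rb1, was lower with NOX_6_18 in fl/fl mice in WAT and 0 in CKO on vehicle.

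Markers of other cells also differed in the fl/fl vehicle libraries of WAT. The macrophage list summed to 4904 to 5087 CPM in the other 6 WAT libraries and to 7097 to 7752 CPM in fl/fl on vehicle, and 5 of 8 were lower and 1 higher with NOX_6_18 in fl/fl mice, where 13.2% of all genes were lower and 24.6% higher. The fibroblast list summed to 10700 to 11040 CPM in the other 6 and to 20041 to 20715 CPM in fl/fl on vehicle, and 4 of 5 were lower with NOX_6_18. Erythroid markers summed to 3275 to 3746 CPM in the other 6 and to 1418 to 1657 CPM in fl/fl on vehicle, and 5 of 7 were higher with NOX_6_18. Neutrophil markers summed to 130 to 151 CPM in the other 6 and to 32.3 to 36.3 CPM in fl/fl on vehicle, and 5 of the 7 tested were higher. Adipocyte markers summed to 1358 to 1528 CPM in the other 6 and to 2095 to 2317 CPM in fl/fl on vehicle. The 6 genes of this list were split, with 2 higher and 2 lower with NOX_6_18 in fl/fl mice and 3 higher and 2 lower in CKO on vehicle. Endothelial markers summed to 1436 to 1589 CPM in the other 6 and to 1981 to 2151 CPM in fl/fl on vehicle, and hepatocyte markers to 47.8 to 53.8 CPM in the other 6 and to 14.3 to 16.5 CPM in fl/fl on vehicle. B cell and Kupffer cell sums also did not overlap, by smaller gaps, and T cell sums did. The part of these cells in the histone differences was not tested.

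The fl/fl vehicle pair stood apart in liver as well. Neutrophil markers summed to 94 to 104 CPM in the other 6 liver libraries and to 18.4 to 22.9 CPM in fl/fl on vehicle, and 6 of 8 were higher with NOX_6_18 in fl/fl mice. Erythroid markers summed to 4096 to 4505 CPM in the other 6 and to 7660 to 8079 CPM in fl/fl on vehicle, and B cell markers to 15.9 to 20.7 CPM in the other 6 and to 38.7 to 41.8 CPM in fl/fl on vehicle. Kupffer cell markers summed to 1472 to 1523 CPM in the other 6 and to 1220 to 1259 CPM in fl/fl on vehicle. Of these 5 genes 4 were higher with NOX_6_18 in fl/fl mice and 5 in CKO on vehicle, beside 5.52% and 5.8% of all genes called. Hepatocyte markers summed to 2835 to 2891 CPM in the other 6 and to 2536 to 2622.5 CPM in fl/fl on vehicle. Their part in the liver values of Hist1h2bc and Hist1h1d was not tested.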

How the data were processed

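Per the labels' protocols, tissue went into liquid nitrogen, TRIzol gave total RNA of macrophages, and a stranded KAPA kit was used for the libraries. The authors deposited raw read counts per gene, 1 table per library; HISAT, featureCounts 1.5.0, DESeq 1.8.3 and GRCm38 are named, without role, per the submitters' processing notes. Strand setting and annotation of the counting are not given by the sources used here, so reads of overlapping genes and near-identical copies are uncertain.

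Groups and replicate numbers came from sample titles. edgeR 4.0.16 (R 4.3.3) was fitted to every gene: TMM scaling, the filterByExpr filter over groups, a coefficient for each group, quasi-likelihood test, Benjamini-Hochberg adjusted p under 0.05. A tissue's 8 libraries shared 1 fit; comparisons between tissues used all 16. The SE of a log2 fold change is its size divided by the root of F. Levels set against groups at 0 use a floor of 3 counts over the group, take the other group's counts as observed and are no lower bounds. The fit was tested on simulated data. Alternatives were RLE size factors, library totals, a GC and length correction, no filter, DESeq2 1.42.0, a replicate block, only the groups compared and each library left out. Leaving Hist2h2aa1 or overlapping members out of sums was chosen after seeing the data.

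Named genes were the testis-type members, the 2 with the highest CPM per kilobase in each class and tissue, up to 4 called members each way per comparison (with none called, the 2 with the smallest p) and up to 3 called each way from other lists. Hist2h2aa2, Hist1h3a, Trim17 and Gm20634 fell outside this rule and were named after their values were seen. Members and lists were chosen with earlier results of these data known.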

Additional observations from a re-analysis of the deposited data

Results flagged for a closer look

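The effect of NOX_6_18 differed between genotypes in WAT for 5 histone genes, tested as an interaction by edgeR's quasi-likelihood test over all genes. They were 10.4% of the 48 members tested, against 25.3% of all genes. The interaction uses the fl/fl vehicle pair, which stood apart from the other WAT libraries. No member was called in the WAT comparisons within CKO and within NOX_6_18, which do not use that pair. The difference, CKO minus fl/fl on the log2 scale, was 0.65 ± 0.13 (SE) for Hist1h1c, -3.87 ± 0.52 for Hist1h2bp, -4.16 ± 0.53 for Hist1h4a, -7.02 ± 1.82 for Hist1h2ba and -8.15 ± 1.65 for Hist2h2ac. For Hist1h2ba and Hist2h2ac these fitted values rest on 0 counts in fl/fl on vehicle and give no bound.

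In fl/fl mice the effect of NOX_6_18 differed between tissues for 4 members, or 8.33% of the 48 tested against 14.7% of all genes. This difference uses the fl/fl vehicle pairs of both tissues, which stood apart from the other libraries of their tissue. WAT minus liver was -0.62 ± 0.16 for Hist1h1c, -0.86 ± 0.22 for Hist1h2bc, -3.12 ± 0.96 for Hist1h2bq and -7.21 ± 1.71 for Hist1h1d, the last resting on 0 counts in liver of fl/fl mice on vehicle.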

How the results depend on the processing

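The counts of called histone genes stayed within 1.5 times in most settings. With no library left out, the exceptions were as follows. The WAT treatment by genotype interaction had 8 called, against 5, with the trend on GC content and length removed. Liver CKO against fl/fl on vehicle had 1 by DESeq2, against 0. WAT against liver had 15 with library totals only, against 8. The treatment by tissue interaction had 1 with library totals only and 2 with the fit limited to the groups compared, against 4. With a library left out, counts moved by more than 1.5 times for CKO on vehicle in WAT and in liver. The treatment by tissue interaction also did so, for most libraries left out. Hist3h2a in WAT against liver was the 1 reversed value, at 0.52 with library totals only. Leaving out 1 library at a time gave 7 to 12 calls for NOX_6_18 in fl/fl WAT, 5 to 9 for CKO on vehicle in WAT, 4 to 6 for the WAT interaction, 6 to 7 for WAT against liver, 1 to 3 for the treatment by tissue interaction, 0 to 1 for CKO on vehicle in liver and 0 in the others; the lone library of a group was assumed to vary like the rest. The cause of these moves was not tested. Among single genes 362 values kept their direction and side of the threshold, and 86 kept their direction but lost the call.

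With the replicate block the calls were 8 for NOX_6_18 in fl/fl WAT, 7 for CKO on vehicle in WAT, 5 for the WAT interaction, 7 for WAT against liver and 3 for the treatment by tissue interaction, and 0 elsewhere. Between the groups of a tissue, same-numbered libraries did not deviate together (r from -0.0112 to 0.025 in WAT and from -0.0274 to 0.00597 in liver). Whether WAT and liver libraries of the same group and number come from the same mouse was not tested. With the fit limited to the groups compared, Hist1h1t and Hist1h2aa in both WAT comparisons with fl/fl on vehicle, and Hist1h2ba for CKO, did not pass the filter on low counts and gave no value. Depth limits 13 members in WAT and 34 in liver, which had under 10 counts in every library.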
